A study of Mus musculus with 36 samples.

Results

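The first day of recovery from chronic hypoxia was examined here, labelled day 22. Its members are the 4 arrays of day 22, replicates 1 to 4, of 36 arrays in the series. On every array the lungs of BALB/c mice that had spent 21 days at 0.5 atm and then 1 day back at sea-level pressure were set against the lungs of control mice of the same day. Whole lungs of 5 mice per condition were pooled, separately for the exposed and the control mice, and both cDNAs were hybridised to 1 spotted glass slide with different dyes. One pool per condition is described for each day, and nothing in the labels ties the 4 arrays to separate mice. In the main test the p-values then rest on how far arrays of the same day differ, a spread estimated from all 36 arrays together. That spread may be technical. The other 8 time points, used here as comparison, were days 1, 3, 7, 14 and 21 of hypoxia and days 24, 28 and 35, which follow 3, 7 and 14 days of recovery, and each had its own control pool.

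Chronic hypoxia constricts the small arteries of the lung, thickens their walls and raises the pressure against which the right ventricle works, while erythropoietin drives the formation of red cells. Return to normal oxygen relaxes the constriction within a short time, whereas the thickened walls regress more slowly. The first day after the return lies between both states in time, which does not place the value of any gene between them.

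Each value is a log2 ratio, in which 1 stands for a doubling. Positive values are read as higher in the exposed lung. This reading is likely, not settled: the protocol lists hypoxic before control and Cy5 before Cy3 without tying them together, and no label records a dye swap. Ratios give no levels, so the labelled tissue could not be checked against its markers. In a whole organ, fewer cells of a type and less RNA per cell cannot be told apart. The day 22 arrays held values for 14675 to 14719 of 15388 spots. Their medians ran from -0.0105 to 0.0103 and their SDs from 0.224 to 0.267, against SDs of 0.169 to 0.525 over the series. Spots of a gene were averaged, and 11517 features (genes, and spots without a single gene symbol) had enough values for a test.

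Before any gene is described, the arrays have to be taken in pairs. Over 7556 features with a value on all 36 arrays, the correlation was 0.565 and 0.823 within the pairs (replicates 1 and 2, and replicates 3 and 4), and lay between -0.137 and -0.0017 across them. Each pair resembled the same replicate numbers of other days more than its partner of the same day. Replicates 1 and 2 correlated with those of other days at a median r of 0.442, and with replicates 3 and 4 of other days at -0.003. For replicates 3 and 4 the medians were 0.488 and 0.048. These correlations run across genes, which are not independent replicates, and are given as descriptions. The labels give no reason for the grouping. Results are therefore given on 4 arrays, and for many genes and lists also by array or in each pair. Where pair values are not given, agreement between the pairs is not implied.

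The first comparison asked which genes still differed from control after 1 day of recovery. On the 4 arrays together 189 of 11517 features (1.64%) differed from 0 at an adjusted p under 0.05 in limma, a linear model with a moderated estimate of the spread, 97 of them higher (0.842%) and 92 lower (0.799%). A gene symbol was available for 119. Among the 181 with a value on every array, 180 had the same sign on all 4. Over 10917 features with 4 values 19.7% had (8.62% above 0 and 11.1% below). Calls were made on the mean of these same arrays, which favours a shared sign, so the contrast is no separate sign of agreement between arrays. Hemoglobin genes, the prion-like protein gene Prnd, 2 genes that followed hemoglobin (Phtf1 and Got2), the clock gene Arntl, the natriuretic peptide gene Nppb and the stress-response gene Atf3 had the largest increases among the named genes. The clock output genes Nr1d2 and Tef, the endothelin receptor gene Ednrb and the sialomucin gene Podxl were among the largest decreases.

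**Figure D1:**
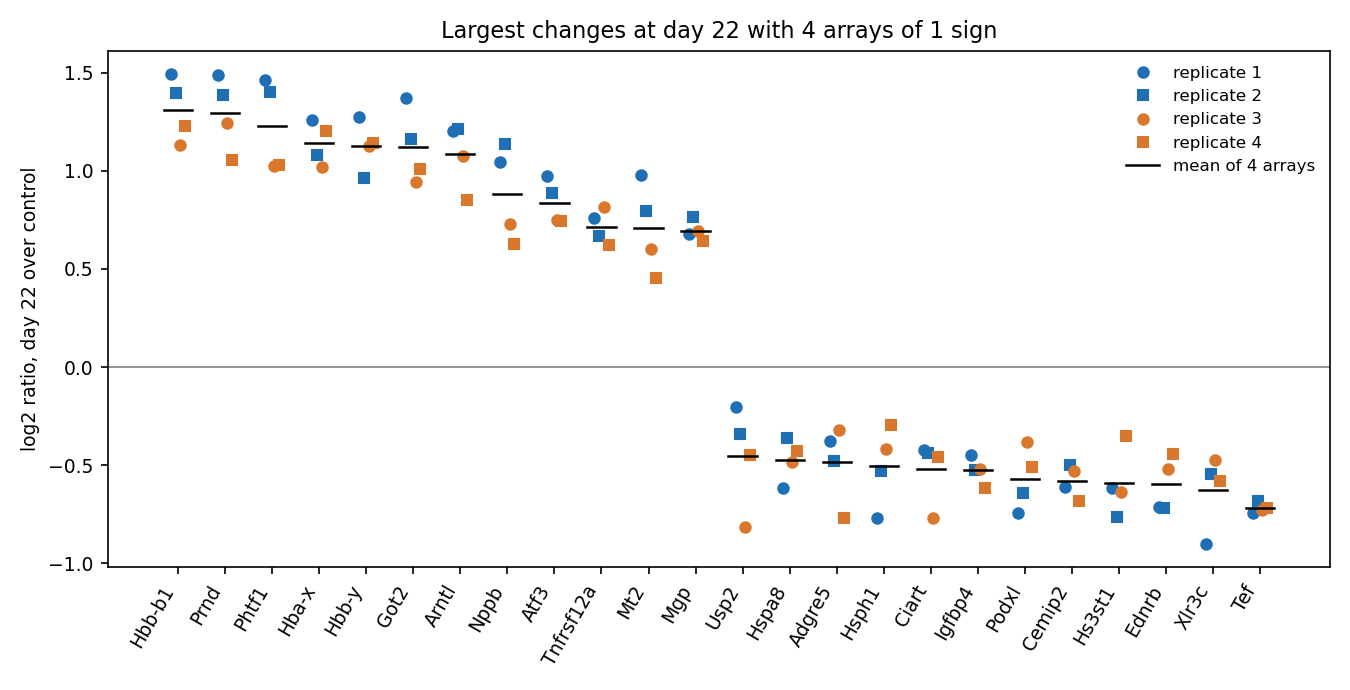
The vertical axis gives the log2 ratio of day 22 lung over control for the 12 genes highest and the 12 lowest among called genes with 4 arrays of 1 sign. Each point is an array, blue for replicates 1 and 2 and orange for replicates 3 and 4, and the bar is the mean. The higher genes lie between 0.45 and 1.49 on every array, and the lower genes between -0.90 and -0.20.

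The count rested on how the arrays were weighted. With day and pair as a random block, which lets arrays of a pair share their error, 73 features passed, 59 higher and 14 lower. With each pair averaged to a single value, 56 passed, 49 higher and 7 lower. In a fit that took its spread from the day 22 arrays alone, 70 passed, 53 higher and 17 lower. Without replicate 1 the count was 91 and without replicate 2 it was 113. The naming rule took 42 called genes for their day 22 mean, as list members or in a set of hypoxia and lung vessel genes. Called genes that it took only in other comparisons, such as Fos, Dnaja1 and Mest, are not among them. Of the 42, 18 were lost with the random block and 26 with the pairs averaged. Under each alternative that gave them a value 15 passed: Hbb-b1, Hbb-y, Hba-x, Phtf1, Got2, Prnd, Nppb, Atf3, Egr1, Tnfrsf12a, Mt2 and Mgp among the higher, and Tef, Ednrb and Podxl among the lower.

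Globin genes led the increases. Hbb-b1, an adult beta chain of hemoglobin, gave 1.49 and 1.40 in replicates 1 and 2 and 1.13 and 1.23 in replicates 3 and 4. All 4 arrays were high, the first pair slightly above the other, and the mean was 1.31 ± 0.16 (SD, n = 4), or 2.49-fold (limma adjusted p = 1.63e-12). The spots annotated to the embryonic chains Hbb-y (1.13 ± 0.13, SD, n = 4) and Hba-x (1.14 ± 0.11, SD, n = 4) rose by nearly the same amount, with overlapping pairs. Globin genes resemble each other in sequence, and a spotted cDNA may not separate them, so the value of a single chain is uncertain.

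Other markers of red cell formation moved less. Alas2, which starts heme synthesis in red cell precursors, gave 1.15, 0.81, 0.33 and 0.30 on replicates 1 to 4. The pairs did not overlap, the mean was 0.65 ± 0.41 (SD, n = 4; limma adjusted p = 0.0151), and the call was lost with the random block (adjusted p = 0.14), without replicate 1 (0.36) and without replicate 2 (0.14). Of 11 erythroid genes tested, 4 were higher and none lower, beside 0.842% and 0.799% of all features, and their median was 0.15 against 0.01 for all. The remaining 7 members ran from -0.03 for the transferrin receptor Tfrc to 0.19 for the transcription factor Gata1, none of them called.

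Much of the list of higher features shared the time course of Hbb-b1. Of the 97 higher features, 38 correlated with Hbb-b1 above 0.9 over the 36 arrays, and of the 92 lower none did. Of all 11517 features, 11479 did not. The 36 arrays include those of day 22, where Hbb-b1 was high, so a feature called lower there could hardly follow it. Of these 38, 32 had no single gene symbol, and 22 of the 32 were listed under several genes including a hemoglobin gene. Phtf1 (1.23 ± 0.24, SD, n = 4) and Got2 (1.12 ± 0.19, SD, n = 4), a mitochondrial aminotransferase, each rest on 1 spot and followed Hbb-b1 at r = 0.98 over 36 arrays. What these spots hold beyond their annotation was not tested. Without the followers, 59 higher features remained.

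**Figure D2:**
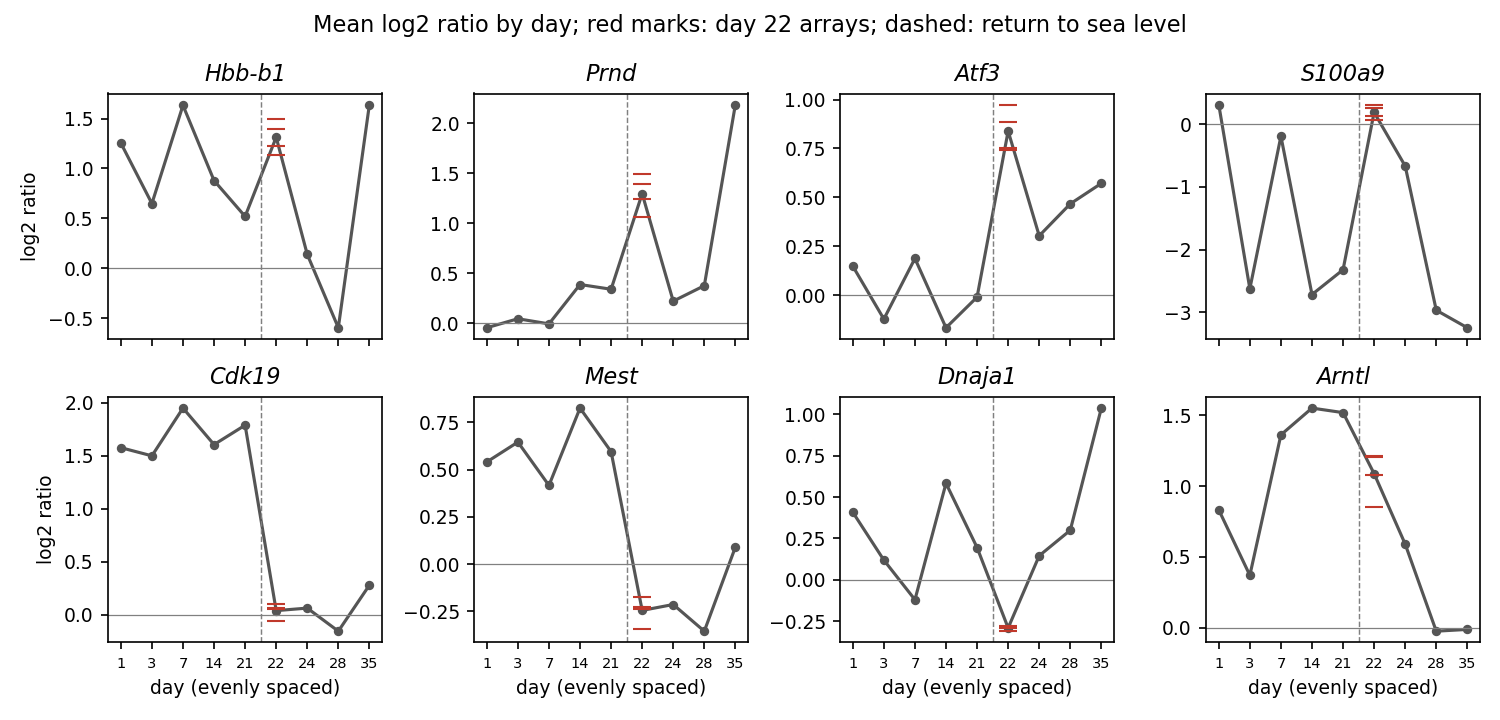
Mean log2 ratio of 4 arrays for 8 genes at each of the 9 time points, evenly spaced on the horizontal axis; red marks are the 4 arrays of day 22 and the dashed line is the return to sea-level pressure. Hbb-b1, Prnd and Atf3 stand above both neighbouring days at day 22, Dnaja1 stands below them, and Cdk19 and Mest fall from their hypoxia levels. Genes were picked from the named ones with their values known.

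Prnd, which encodes the prion-like protein Doppel, gave 1.49, 1.39, 1.24 and 1.06 on replicates 1 to 4, with a mean of 1.29 ± 0.19 (SD, n = 4) or 2.45-fold (limma adjusted p = 5.03e-08). All 4 arrays were well above 0. Its mean had been between -0.05 and 0.39 over the 5 hypoxia days, was 0.22 at day 24 and reached 2.18 at day 35. Unlike Phtf1 and Got2 it did not follow Hbb-b1 (r = 0.31 over 36 arrays).

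Nppb, the gene of B-type natriuretic peptide, a hormone released by strained heart muscle, gave 1.04, 1.14, 0.73 and 0.63. Both pairs passed alone, the first above the other without overlap, and the mean of 0.88 ± 0.25 (SD, n = 4; limma adjusted p = 1.95e-05) was the highest of the 9 days, the others lying between -0.27 and 0.37. Tnfrsf12a, the receptor of the cytokine TWEAK, gave 0.76, 0.67, 0.82 and 0.62, a mean of 0.72 ± 0.09 (SD, n = 4; limma adjusted p = 4.12e-06), with overlapping pairs. Against day 21 neither passed (adjusted p = 0.17 and 0.31).

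Immediate early and stress genes, which cells switch on within minutes to hours of a stimulus, formed the next group. Of 21 tested, 6 were higher and none lower, beside 0.842% and 0.799% of all features, and the median was 0.08 against 0.01 for all features. Atf3, a transcription factor induced by many stresses, gave 0.97, 0.89, 0.75 and 0.74 (mean 0.84 ± 0.11, SD, n = 4; limma adjusted p = 2.99e-08), its highest mean of the 9 days. Egr1, a growth-factor-induced zinc finger factor, gave 0.50, 0.52, 0.49 and 0.49, so that the arrays hardly differed (mean 0.50 ± 0.01, SD, n = 4; limma adjusted p = 7.04e-08). Fos, a subunit of the AP-1 factor, gave 0.57, 0.37, 0.41 and 0.36, and its mean of 0.43 ± 0.10 (SD, n = 4) passed as well (limma adjusted p = 0.00055). Its relative Jun did not pass at -0.19 (adjusted p = 0.12). The sixth gene, Btg2, an antiproliferative factor named here after its value was seen, had a mean of 0.27. With the random block Atf3, Egr1 and Mt2 passed, and Fos, Btg2 and Mt1 did not.

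The metallothionein genes Mt1 and Mt2, whose small proteins bind zinc and copper, lie side by side in the genome, and both were higher. Mt2 gave 0.98, 0.80, 0.60 and 0.45 (mean 0.71 ± 0.23, SD, n = 4; limma adjusted p = 2.19e-05). Mt1 gave 1.05 and 0.96 in replicates 1 and 2 and 0.32 and 0.24 in replicates 3 and 4, a mean of 0.64 ± 0.42 (SD, n = 4; limma adjusted p = 0.039). For Mt1 the difference between the pairs itself passed (0.72 ± 0.16 SE, limma adjusted p = 0.0059), and the mean did not pass without replicate 1 (0.51, adjusted p = 0.48) or replicate 2 (0.54, adjusted p = 0.32). At the other days both genes mostly stood between -0.30 and 1.04, except day 14, where Mt2 fell to -2.16 and Mt1 to -1.92. Their promoters are shown because metallothionein genes are the textbook targets of a metal-sensing transcription factor, which reads a short core, TGCACNC or TGCGCNC on either strand. The 250 bases before each start, from RefSeq with build GRCm38.p6, held 1 match in Mt1 (chr8:94178839-94179088, plus strand), 23 bases before the start. In Mt2 (chr8:94172368-94172617, plus strand) they held 3, at 223, 128 and 50 bases before it. The core occurs in 21.4% of 32851 promoters of that length. Capitals mark the matches, which are letters and not measured sites.
Mt1: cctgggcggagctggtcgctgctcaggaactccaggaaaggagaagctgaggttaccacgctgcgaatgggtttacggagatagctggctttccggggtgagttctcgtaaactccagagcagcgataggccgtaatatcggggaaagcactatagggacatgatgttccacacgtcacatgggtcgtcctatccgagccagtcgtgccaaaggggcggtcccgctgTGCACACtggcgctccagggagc
Mt2: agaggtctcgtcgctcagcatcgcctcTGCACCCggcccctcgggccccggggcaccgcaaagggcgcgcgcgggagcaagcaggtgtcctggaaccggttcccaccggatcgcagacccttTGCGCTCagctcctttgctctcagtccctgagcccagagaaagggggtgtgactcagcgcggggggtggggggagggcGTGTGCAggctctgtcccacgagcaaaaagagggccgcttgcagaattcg

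Clock genes had changed in both directions. The clock is a feedback loop in which the activators BMAL1 (from Arntl) and CLOCK drive their own repressors and a set of output genes. Among 10 clock genes tested, 1 was higher and 3 were lower, beside 0.842% and 0.799% of all features, with a median of -0.10 against 0.01. The counts were the same with the random block. They fell to 0 higher and 2 lower with the pairs averaged, and to 1 and 1 in the day 22 arrays alone. Arntl gave 1.21, 1.22, 1.08 and 0.85 (mean 1.09 ± 0.17, SD, n = 4; limma adjusted p = 0.00113) and did not pass with the pairs averaged (adjusted p = 0.14). The other activators Clock and Npas2 stood at 0.15 and 0.29 and did not pass.

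On the other side of the loop, Tef, an output transcription factor, gave -0.75, -0.68, -0.73 and -0.72, so that all arrays agreed closely (mean -0.72 ± 0.03, SD, n = 4; limma adjusted p = 2.19e-05). Ciart, a repressor of BMAL1 and CLOCK, gave -0.42, -0.44, -0.77 and -0.46 (mean -0.52 ± 0.17, SD, n = 4; limma adjusted p = 0.000197), with replicate 3 apart from the rest. The Ciart call was lost with the pairs averaged (adjusted p = 0.079) and in the day 22 arrays alone (0.061). Nr1d2, the gene of REV-ERB beta, which represses Arntl, had no value on replicate 2 and gave -1.06, -0.63 and -0.57 on the other arrays (mean -0.75, limma adjusted p = 2.61e-05, n = 3). Its call was lost in the day 22 arrays alone (adjusted p = 0.11). Usp2, a deubiquitinase with rhythmic expression that was not in the list, gave -0.20, -0.34, -0.81 and -0.45. Its mean was -0.45 ± 0.26 (SD, n = 4; limma adjusted p = 0.0258), and the call was lost with the random block (adjusted p = 0.19) and without replicate 2, 3 or 4 (0.072, 0.3 and 0.093).

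Arntl, Tef and Nr1d2 had also been away from 0 during hypoxia. Arntl had stood between 0.37 and 1.55 over the 5 hypoxia days, was 0.59 at day 24, and returned to -0.02 and -0.01 at days 28 and 35. Tef was below 0 at all 9 days, from -1.02 to -0.31, and Nr1d2 likewise, from -1.70 to -0.13. Ciart differed at day 22 from day 21 (-0.54 ± 0.12 SE, limma adjusted p = 0.0217), having been at 0.01 there and between -0.06 and 0.19 over the 5 hypoxia days. That call was lost with the random block (adjusted p = 0.36), with the pairs averaged (0.77), without replicate 3 of day 22 (0.14) and without replicate 1, 2 or 4 of day 21 (0.12, 0.091 and 0.059). The other 3 did not pass in that comparison. The E-box CACGTG, a palindrome to which BMAL1 and CLOCK bind, occurred in 6.02% of 32851 RefSeq promoters within the 250 bases before the start. Tef held 1 match 127 bases before its first start (chr15:81802423-81802672, plus strand) and 1 match 138 bases before its other start (chr15:81811164-81811413, plus strand). Ciart held 3, at 116, 58 and 44 bases (chr3:95882229-95882478, minus strand). The windows of Arntl, Nr1d2 and Usp2 held none, which says only that these letters were not in those windows. The 3 windows with matches are shown with the E-box in capitals.
Tef, first start: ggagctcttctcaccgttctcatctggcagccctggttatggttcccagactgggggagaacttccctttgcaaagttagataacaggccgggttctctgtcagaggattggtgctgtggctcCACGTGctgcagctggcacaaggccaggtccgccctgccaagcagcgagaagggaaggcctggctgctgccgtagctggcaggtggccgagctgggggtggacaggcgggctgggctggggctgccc
Tef, other start: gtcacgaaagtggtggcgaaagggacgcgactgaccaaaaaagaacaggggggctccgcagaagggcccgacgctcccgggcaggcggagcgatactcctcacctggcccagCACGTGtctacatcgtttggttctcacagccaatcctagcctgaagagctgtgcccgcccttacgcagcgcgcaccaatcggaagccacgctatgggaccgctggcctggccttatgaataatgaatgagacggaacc
Ciart: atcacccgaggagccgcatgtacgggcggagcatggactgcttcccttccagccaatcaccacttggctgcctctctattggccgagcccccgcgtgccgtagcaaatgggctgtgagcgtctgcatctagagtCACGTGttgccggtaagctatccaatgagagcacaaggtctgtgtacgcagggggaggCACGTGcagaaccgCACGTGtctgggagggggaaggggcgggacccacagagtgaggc

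Chaperones, which fold and refold proteins, were among the lower genes. Of 35 genes of protein folding and the unfolded protein response tested, 8 were lower and none higher, beside 0.799% and 0.842% of all features. The median was -0.16 against 0.01, and 30 of 35 means lay below 0. Dnaja1, an HSP40 co-chaperone, gave -0.29, -0.28, -0.28 and -0.31 (mean -0.29 ± 0.01, SD, n = 4; limma adjusted p = 2.04e-05), the lowest of its 9 day means. Dnajb9 of the endoplasmic reticulum gave -0.43, -0.44, -0.49 and -0.37 (mean -0.43 ± 0.05, SD, n = 4; limma adjusted p = 0.000424). Hspa5, the main HSP70 of the endoplasmic reticulum, gave -0.48, -0.40, -0.23 and -0.28, with replicates 1 and 2 below the other pair (mean -0.35 ± 0.11, SD, n = 4; limma adjusted p = 0.00125).

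The cytosolic chaperones Hsph1, an HSP110, and Hspa8, the constitutive HSC70, had larger means and less certain calls. Hsph1 gave -0.77, -0.53, -0.42 and -0.30 (mean -0.50 ± 0.20, SD, n = 4; limma adjusted p = 0.0239), and was not called without replicate 1 (adjusted p = 0.35), 2 (0.13) or 3 (0.064). Hspa8 gave -0.62, -0.36, -0.48 and -0.43 (mean -0.47 ± 0.11, SD, n = 4; limma adjusted p = 0.0353) and was lost when any of the 4 arrays was left out (adjusted p 0.093 to 0.31). The other called members, Hsp90aa1, Canx and Pdia3, had means of -0.22, -0.26 and -0.27. The list count fell from 8 to 3 with the random block, to 3 without replicate 1 and to 0 with the pairs averaged.

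Matrix genes were among the increases. Of 26 genes of the extracellular matrix and elastic fibre, 5 were higher and none lower, beside 0.842% and 0.799% of all features, and the median was 0.04 against 0.01. The count was 3 with the random block and 1, Mgp, with the pairs averaged. Mgp, matrix Gla protein, an inhibitor of calcification in vessel walls, gave 0.68, 0.77, 0.70 and 0.64 (mean 0.70 ± 0.05, SD, n = 4; limma adjusted p = 4.2e-08). Tnc, tenascin C, which is deposited in remodelling arteries, gave 0.51, 0.52, 0.61 and 0.60 (mean 0.56 ± 0.05, SD, n = 4; limma adjusted p = 0.000116). In both genes the arrays lay close together and both pairs passed alone, while with the pairs averaged Tnc did not pass (adjusted p = 0.058).

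Col3a1, a fibrillar collagen, was higher by a smaller amount (0.46, 0.30, 0.19 and 0.35; mean 0.32 ± 0.11, SD, n = 4; limma adjusted p = 0.000261), and was lost with the pairs averaged (adjusted p = 0.13) and in the day 22 arrays alone (0.19). Col1a1 stood at 0.04 (adjusted p = 0.99), having been between 0.55 and 1.08 from day 3 to day 21. Mfap4, an elastic-fibre protein, gave 0.87, 0.83, 0.49 and 0.36 (mean 0.64 ± 0.25, SD, n = 4; limma adjusted p = 0.00804). Spon2, a secreted matrix protein, gave 0.85, 0.80, 0.51 and 0.27 (mean 0.61 ± 0.27, SD, n = 4; limma adjusted p = 0.0199). Both were higher in replicates 1 and 2 and lost their call with the random block (adjusted p = 0.069 and 0.23). Without replicate 1 their adjusted p was 0.14 and 0.25, and without replicate 2 it was 0.1 and 0.18. Spon2 was also lost without replicate 3 (0.057).

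Genes of the vessel lining had 2 lower members and none higher of 7 endothelial genes tested, beside 0.799% and 0.842% of all features. On 4 arrays the median was -0.29 and 6 of 7 means lay below 0. In replicates 1 and 2 the median was -0.07, with 1 higher and 2 lower, beside 5.41% and 4.72% of all features. In replicates 3 and 4 it was -0.31, with none higher and 3 lower, beside 1.73% and 1.22%. The difference passed in 2 of the 7, both higher in replicates 1 and 2, beside 5.73% of all features. Ednrb, the B receptor of the vasoconstrictor endothelin, gave -0.71, -0.72, -0.52 and -0.44 (mean -0.60 ± 0.14, SD, n = 4; limma adjusted p = 6.58e-07), and 7 of the other 8 day means were also negative. Cdh5, the cadherin of endothelial junctions, gave -0.28, -0.40, -0.22 and -0.26 (mean -0.29 ± 0.08, SD, n = 4; limma adjusted p = 0.00498) and was lost with the random block (adjusted p = 0.11) and without replicate 2 (0.091). Podxl, podocalyxin, a sialomucin of endothelium and of kidney podocytes that was not in the list, gave -0.74, -0.64, -0.38 and -0.51 (mean -0.57 ± 0.16, SD, n = 4; limma adjusted p = 5.34e-06), its lowest day mean.

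Emcn, endomucin, split by pair, with 0.50 and 0.51 against -0.02 and 0.03. Its mean of 0.26 did not pass (adjusted p = 0.48), while the difference between the pairs did (0.51 ± 0.14 SE, limma adjusted p = 0.02). Bmpr2, a receptor of bone morphogenetic proteins and the main gene of heritable pulmonary hypertension, split likewise. It gave -0.81 and -0.61 in replicates 1 and 2 and -0.04 and -0.07 in replicates 3 and 4. The first pair alone passed (-0.71, limma adjusted p = 1.8e-05), the other pair stood at -0.05 (adjusted p = 0.78), the difference passed (adjusted p = 0.00413) and the mean of 4 arrays did not (-0.38, adjusted p = 0.23). The mean pair difference of Bmpr2 over the other 8 days was -0.40 with the same sign at every day. With an offset between the pairs shared by all days taken out, an alternative added after the data were seen, the mean of 4 arrays passed (adjusted p = 0.0018). Tgfbr3, the TGF-beta co-receptor betaglycan, was at -0.64 (adjusted p = 0.069), and passed with that offset taken out (0.045) and in the day 22 arrays alone (0.041).

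The remaining decreases covered several functions. Igfbp4, which binds insulin-like growth factors, gave -0.45, -0.52, -0.52 and -0.61 (mean -0.53 ± 0.07, SD, n = 4; limma adjusted p = 6.55e-05). Hs3st1, a heparan sulfate sulfotransferase, stood at -0.59 ± 0.17, Xlr3c at -0.63 ± 0.19, and Cemip2, a cell-surface hyaluronidase, at -0.58 ± 0.08 (SD, n = 4 each). These 3 passed in the main test and were lost with the random block (adjusted p = 0.11, 0.08 and 0.24). Xlr3c was lost without replicate 1 (adjusted p = 0.1), Hs3st1 without replicate 2 (0.073), and Cemip2 without any of the 4 (0.051 to 0.1). The adhesion receptor gene Adgre5 stood at -0.49 ± 0.20 (SD, n = 4) and was lost with the random block (adjusted p = 0.45) and without replicate 1, 2 or 4 (0.077, 0.11 and 0.21). Of 43 splicing and RNA-binding genes 3 were lower, beside 0.799% of all features, namely Hnrnpa1 (-0.36), Rbm39 (-0.34) and Clk1 (-0.32). All 3 were lost with the random block (adjusted p = 0.29, 0.23 and 0.22) and without replicate 1 (0.52, 0.52 and 0.26) or replicate 2 (0.16, 0.25 and 0.21), and Rbm39 also without replicate 4 and Clk1 without replicate 3 (0.059 each).

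Genes that answer directly to low oxygen had means between -0.31 and 0.17. Of 17 genes of the hypoxia-inducible factor and its targets none was higher and 1 was lower, beside 0.842% and 0.799% of all features. The lower gene was Igfbp3 (-0.31 ± 0.06, SD, n = 4; limma adjusted p = 0.0413). Igfbp3 was lost with the random block (adjusted p = 0.5) and without any of the 4 arrays (0.089 to 0.2). Hif1a itself gave -0.13, 0.01, -0.02 and 0.09, the glucose transporter Slc2a1 0.17, -0.07, -0.08 and -0.10, and the heme oxygenase Hmox1 0.29, 0.09, -0.11 and -0.04. The arrays of all 3 fell on both sides of 0. Of 13 glycolysis genes none was called on 4 arrays, with a median of -0.04, but the pairs stood apart. The median was 0.145 in replicates 1 and 2, with 10 of 13 means above 0. It was -0.164 in replicates 3 and 4, with 11 below 0. For 2 the difference passed, both higher in replicates 1 and 2, beside 5.73% of all features. Shares of all features are so small that few or no calls in lists of 17 and 13 genes do not show a return to control.

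Markers of other cell types that the lung could hold gave small numbers, to be read beside 0.842% higher and 0.799% lower of all features. Of 6 neutrophil genes 1 was higher, Ltf, the iron-binding lactoferrin (0.62, 0.67, 0.47 and 0.49; mean 0.56 ± 0.10, SD, n = 4; limma adjusted p = 0.0016), and the others ran from -0.04 to 0.38. None of 6 macrophage and monocyte genes was called on 4 arrays (median 0.04). Their medians were 0.164 in replicates 1 and 2 and 0.012 in replicates 3 and 4. Of 2 lymphocyte genes, Ighm, the heavy chain of immunoglobulin M, was lower at -0.34 ± 0.05 (SD, n = 4; limma adjusted p = 0.039), and lost with the random block (adjusted p = 0.44) and without any of the 4 arrays (0.12 to 0.17). Fibroblast and pericyte genes had 2 higher of 12, Mgp and Col3a1, already described, and alveolar type II genes had none of 8. In replicates 1 and 2 alone, 2 of those 8 were higher (median 0.184), beside 5.41% of all features. In replicates 3 and 4 none of the 8 was called (median -0.001). The part of cell numbers in any result was not tested.

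The second comparison took the pairs apart. In replicates 1 and 2 alone 1106 of 10917 features (10.1%) passed, 591 higher and 515 lower. In replicates 3 and 4 alone 322 (2.95%) passed, 189 higher (1.73%) and 133 lower (1.22%). The p-values here rest on how far the 2 arrays of a day and pair differ, and leave out the spread between pairs. Of the 1106, 93.2% had the sign that the same replicates had on average over the other 8 days, beside 69% of all features. For the 322 it was 95%, beside 76%. Such calls therefore also hold what a pair shares across days, and are not all changes of day 22. Both lists shared 118 features, which is 10.7% of the first and 36.6% of the other. Of these 118, 85 had the same direction and 33 opposite directions. Genes called the same way in both pairs included Hbb-b1 (1.45 and 1.18), Prnd (1.44 and 1.15), Atf3 (0.93 and 0.75), Mgp (0.72 and 0.67), Tef (-0.71 and -0.73) and Igfbp4 (-0.49 and -0.57). Either pair rests on 2 arrays, and leaving out 1 of them left 102 or 353 calls in the first and 70 or 73 in the other.

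**Figure D3:**
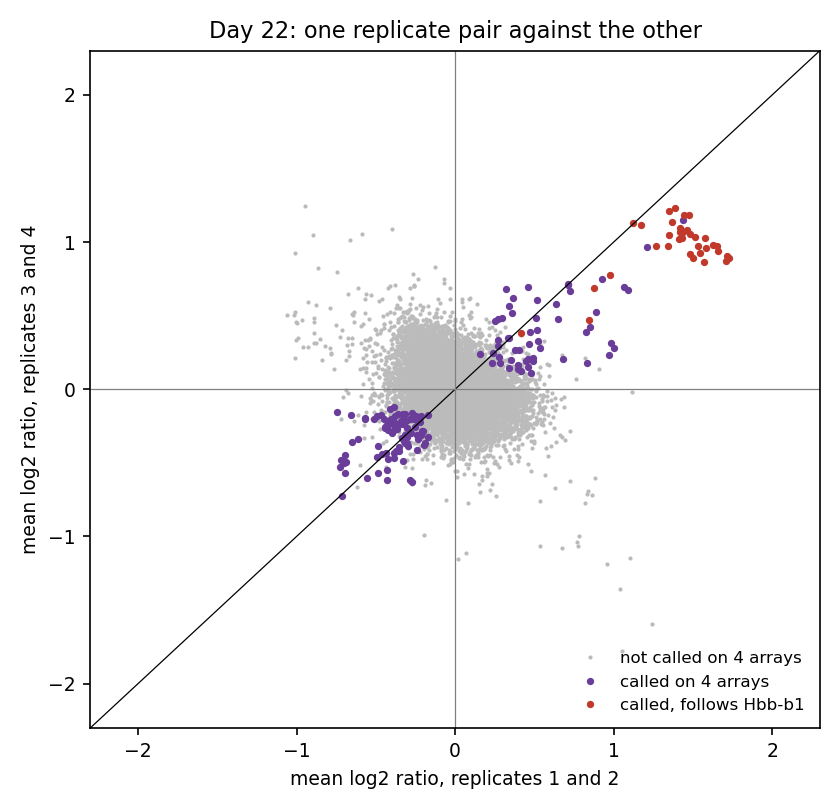
Each point is 1 of 10917 features, by its mean log2 ratio in replicates 1 and 2 (horizontal) and in replicates 3 and 4 (vertical), with 1 feature outside the axes; coloured points were called on 4 arrays and red ones follow Hbb-b1. The cloud lies across the diagonal, and in 52.7% of features the pairs had means of opposite sign without overlap. The called features lie in the corners where both pairs share a sign, which a call on the mean of the same 4 arrays favours.

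The difference between the pairs was tested in a fit with a mean per day and pair, so its count is not on the same footing as the 189 called on 4 arrays. The difference passed for 1336 of 10917 features (12.2%), 626 higher in replicates 1 and 2 (5.73%) and 710 lower (6.5%). For 1275 of the 1336 the pair means had opposite signs. Over all features 52.7% had means of opposite sign in pairs that did not overlap, and choosing large differences favours opposite signs further. Golim4, a Golgi membrane protein, gave -0.99 and -0.79 in replicates 1 and 2 and 0.56 and 0.41 in replicates 3 and 4, a difference of -1.38 ± 0.15 (SE, limma adjusted p = 7.44e-06). Both pairs passed alone, in opposite directions, and the mean of 4 arrays was -0.20 (adjusted p = 0.93). Megf9, a membrane protein with epidermal growth factor-like repeats, gave -0.41 and -0.65 against 0.59 and 0.70, a difference of -1.17 ± 0.14 (SE, limma adjusted p = 5.09e-05), and again passed alone in both pairs with opposite signs.

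Differences in the opposite direction were as clear for some genes. Trmt112, a partner of several methyltransferases, gave 0.63 and 0.58 against -0.40 and -0.36 (difference 0.99 ± 0.14 SE, limma adjusted p = 0.000306). Dad1, a subunit of the oligosaccharyltransferase, gave 0.60 and 0.40 against -0.45 and -0.29 (0.86 ± 0.15 SE, limma adjusted p = 0.00131). C1qb, a chain of the complement component C1q made by macrophages, gave 0.68 and 0.45 against -0.49 and -0.09 (0.86 ± 0.16 SE, limma adjusted p = 0.00257) and was lost without replicate 1 (0.74, adjusted p = 0.064) or replicate 3 (0.66, adjusted p = 0.057). For these 3 genes the means of 4 arrays, 0.11, 0.06 and 0.14, did not pass.

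In 2 genes with large differences replicate 4 was the lowest array. Csdc2, an RNA-binding cold shock protein gene, gave 0.78 and 0.67 against 0.14 and -1.38, and Cd93, an endothelial lectin gene, gave -0.03 and 0.17 against -0.26 and -1.97. Their differences of 1.34 ± 0.40 and 1.18 ± 0.39 (SE, limma adjusted p = 0.034 and 0.0496) were lost without replicate 4 (0.58, adjusted p = 0.44, and 0.33, adjusted p = 0.66). They were also lost without replicate 1 (adjusted p = 0.19 and 0.18) and without replicate 2 (0.11 and 0.19).

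Genes of the respiratory chain, the ribosome and the proteasome, which most cells use, differed between the pairs. Of 50 genes of oxidative phosphorylation none was called on 4 arrays. In replicates 1 and 2, 14 of 49 were higher and 1 was lower (median 0.23, beside 5.41% higher and 4.72% lower of all features). In replicates 3 and 4 none was higher and 1 was lower (median -0.04), and for 8 the difference itself passed, all higher in replicates 1 and 2, beside 12.2% of all features called for it (5.73% higher and 6.5% lower). Cytosolic ribosomal protein genes behaved alike, with 12 of 66 higher in the first pair (median 0.18), none called in the other (median -0.07), and 13 with a called difference, all in the same direction. For the proteasome the difference passed in 8 of 26, all higher in replicates 1 and 2. Chaperones had medians of -0.23 and -0.15 in the pairs and 2 of 35 called differences, a share below that of all features.

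**Figure D4:**
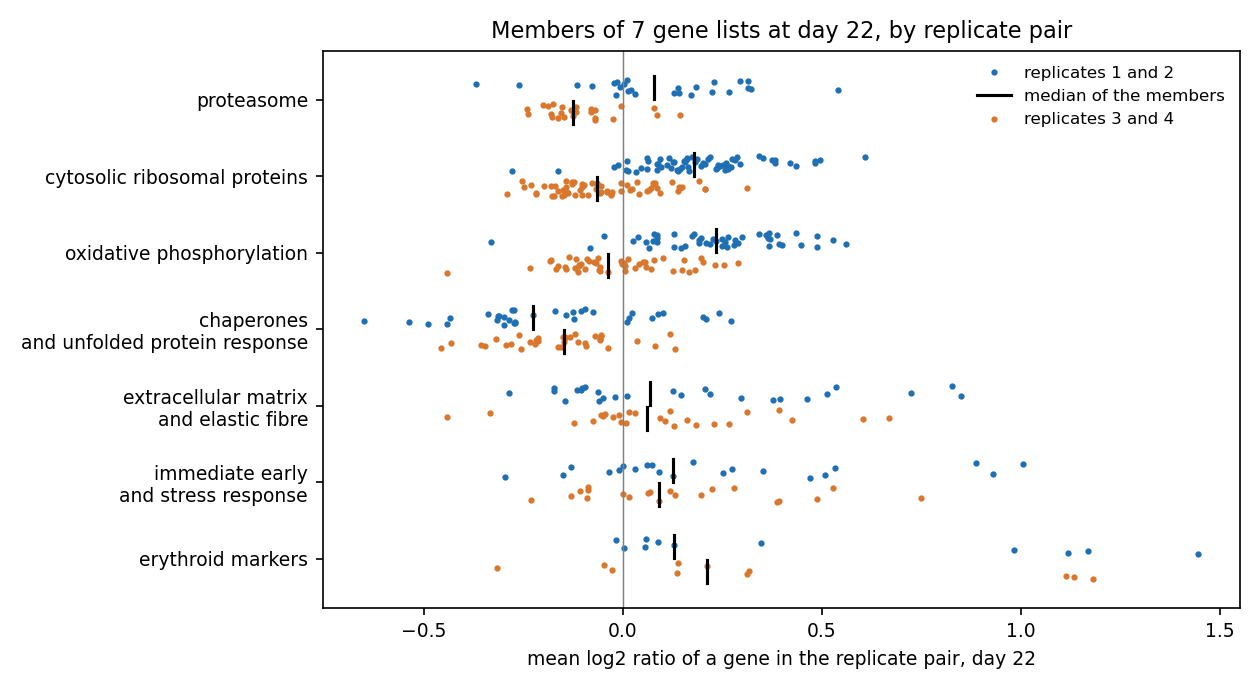
Mean log2 ratio at day 22 of each member of 7 gene lists, in replicates 1 and 2 (blue) and replicates 3 and 4 (orange); black bars are the medians. Medians of oxidative phosphorylation (0.23 and -0.04), ribosomal protein (0.18 and -0.07) and proteasome genes (0.08 and -0.13) lie on both sides of 0, while those of chaperones (-0.23 and -0.15) lie below 0 in both pairs.

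The same split was present on other days. The difference between the pairs at day 22 correlated at r = 0.811 across 7556 features with the mean of that difference over the other 8 days, and at 0.330 to 0.738 with single days. Of the 1336 features called for the difference at day 22, 1332 had the same sign in the mean of the other days, beside 81.5% of all features. At each of the 8 days 854 had it, a count for which the share of all features was not taken. Golim4 had a mean pair difference of -0.68 there, Megf9 -0.61, Trmt112 0.66 and Dad1 0.60, each with the same sign at all 8 days. Stated as a test, the day 22 difference minus the mean difference of the other days passed for 0 of 10917 features in limma (lowest adjusted p = 0.95), and 518 (4.74%) had an unadjusted p under 0.05. It passed for 7 with all arrays at a common spread and for 7 without replicate 3. This comparison was added after the data were seen.

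**Figure D5:**
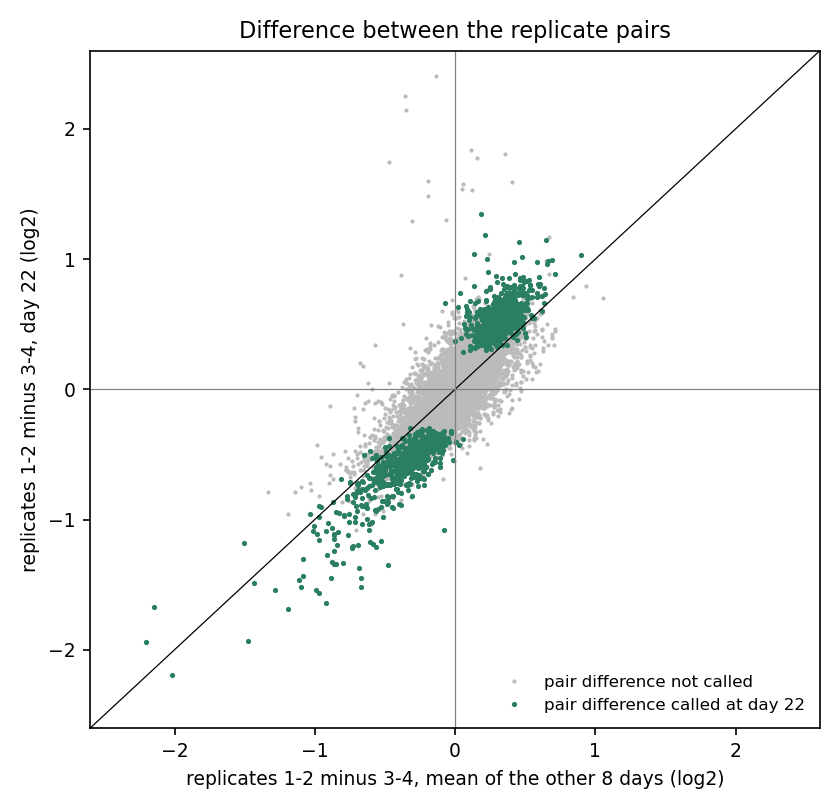
Difference between the mean of replicates 1 and 2 and the mean of replicates 3 and 4, at day 22 (vertical) against its mean over the other 8 days (horizontal), in log2 for the features tested; green marks the 1336 differences called at day 22. Of these, 1332 lie in the 2 quadrants where both values have the same sign, as do 81.5% of all features.

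The SD over features of the 4-array means of day 22 was 0.146, the lowest of the 9 days (up to 0.331 at day 7), and the SD of the pair difference was 0.313, within the range of 0.167 to 0.408. On the same scale, the SD of the mean divided by that of the difference taken at 0.5 of its size, day 22 gave 0.931 and the other days 1.06 to 2.49. With the shared offset between the pairs taken out, 359 features passed against control, among them all 189 of the main test. The 33 features called in opposite directions in the pairs are 2.47% of the called differences.

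The third comparison asked what had changed since day 21, the last day of hypoxia. Against day 21, 74 of 11517 features (0.643%) differed, 45 higher (0.391%) and 29 lower (0.252%). Of the 45 higher 19 followed Hbb-b1, which 11479 of all 11517 features did not. S100a9, a calcium-binding protein of neutrophils and monocytes, gave 0.13, 0.07, 0.32 and 0.26 at day 22, against -2.66 to -1.88 on the arrays of day 21. The difference was 2.52 ± 0.14 (SE, limma adjusted p = 2.1e-13). At day 22 itself S100a9 was not called against control (0.19, adjusted p = 0.56), and it was at -0.66, -2.97 and -3.25 at days 24, 28 and 35.

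Cdk19, a kinase of the Mediator complex, fell furthest. It gave -0.05, 0.05, 0.10 and 0.06 at day 22 against 1.72 to 1.92 at day 21, a difference of -1.75 ± 0.11 (SE, limma adjusted p = 5.51e-13). Its means had been between 1.5 and 1.95 over the 5 hypoxia days and lay between -0.15 and 0.28 over the 4 recovery days. Mest, an imprinted gene of the growing embryo, gave -0.24, -0.17, -0.22 and -0.34 against 0.48 to 0.67 (difference -0.84 ± 0.09 SE, limma adjusted p = 3.84e-07). It was below control at day 22 (limma adjusted p = 0.0342).

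Of the 7 endothelial genes 2, Cdh5 and Emcn, were lower than at day 21 and none higher, beside 0.252% and 0.391% of all features. Podxl fell by 0.72 ± 0.11 (SE, limma adjusted p = 0.000146) and Cdh5 fell by 0.51 ± 0.09 (SE, limma adjusted p = 0.000711). In both no array of day 22 reached those of day 21, as in 4.49% of all features. For Podxl that separation was a condition for naming it in this comparison, so it adds no support. With the pairs averaged neither Podxl nor Cdh5 passed (adjusted p = 0.15 and 0.37). Cxcl12, a chemokine of stromal and endothelial cells, fell by 0.77 ± 0.15 (SE, limma adjusted p = 0.00344) from a day 21 range of 0.54 to 0.97. At day 22 its pairs had opposite signs (0.33 and 0.17 against -0.30 and -0.38), and the call was lost with the random block (adjusted p = 0.092) and with the pairs averaged (0.42). Emcn fell by 0.76 ± 0.18 (SE, limma adjusted p = 0.0271) and was lost with a common spread (adjusted p = 0.053), the random block (0.16) and the pairs averaged (1), without replicate 3 or 4 of day 22 (0.15 and 0.12) and without replicate 1 or 2 of day 21 (0.13 and 0.16).

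Among the genes that rose from day 21, Prnd differed by 0.95 ± 0.19 (SE, limma adjusted p = 0.00662) and was lost with the random block (adjusted p = 0.21), Atf3 by 0.85 ± 0.12 (SE, limma adjusted p = 7.46e-05) and Hbb-b1 by 0.79 ± 0.12 (SE, limma adjusted p = 0.000146). Ltf rose by 0.65 ± 0.15 and Igfbp3 by 0.53 ± 0.12 (SE, limma adjusted p = 0.0326 and 0.0163), and both were lost with the random block (0.35 and 0.36) and with the pairs averaged (0.96 and 0.52). With the pairs averaged Prnd, Atf3 and Hbb-b1 did not pass either (adjusted p = 0.32, 0.11 and 0.22). For Igfbp3 the mean moved from -0.84 towards 0. Each day has its own control pool, so a difference between days also holds the difference between their controls, and these cannot be told apart. Without replicate 2 of day 21 the count was 49, with the random block it was 25, and with the pairs averaged it was 5. Of 19 named genes called against day 21, only S100a9, Cdk19 and Mest passed with the pairs averaged.

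Against day 24, 2 days later in recovery, 69 of 11517 features (0.599%) differed, 59 higher (0.512%) and 10 lower (0.0868%). Of the 59 higher 37 followed Hbb-b1, which 11479 of all 11517 features did not. Hbb-b1 was higher at day 22 by 1.18 ± 0.12 (SE, limma adjusted p = 1.42e-07), and no array overlapped the 0.02 to 0.27 of day 24, as in 6.23% of all features. That separation was a condition for naming it in this comparison, so it adds no support. Fos differed by 1.05 ± 0.11 and Egr1 by 0.96 ± 0.08 (SE, limma adjusted p = 1.42e-07 and 8.04e-10). Their arrays at day 24 lay between -0.71 and -0.57 and between -0.54 and -0.34. Every array of both genes was above 0 at day 22 and below 0 at day 24.

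Of the 35 chaperone genes 2 were lower at day 22 than at day 24, beside 0.0868% of all features. Dnaja1 differed by -0.44 ± 0.06 and Bag3, an HSP70 co-chaperone, by -0.43 ± 0.08 (SE, limma adjusted p = 2.24e-05 and 0.00346). Dnaja1 was below 0 at day 22 and above it on every array of day 24, whereas Bag3 was near 0 (-0.07) at day 22 and at 0.37 at day 24. The Bag3 call was lost with the random block (adjusted p = 0.069), and with the pairs averaged neither passed (0.16 for Dnaja1 and 0.73 for Bag3). Xlr3c differed by -0.90 ± 0.18 (SE, limma adjusted p = 0.0065) and was lost with the random block (adjusted p = 0.11), with the pairs averaged (0.46) and without replicate 1 of day 22 (0.056). With the random block 40 features passed, 38 of them higher, and with the pairs averaged 10, all higher.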

How the data were processed

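Per the labels' protocols, slides were scanned on a GenePix 4000A and read with GenePix Pro 4.0. Background was corrected and poor spots removed, and the authors deposited log2 ratios of median intensities after lowess normalisation, used here as they stand with missing values left empty. Gene names came from the platform annotation, which gives 9598 of 15388 spots a single symbol. Spots of a gene were averaged (6971 genes), and other spots were kept alone (12761 features in all).

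limma 3.58.1 (lmFit, eBayes) in R 4.3.3 fitted a mean per day to all 36 arrays, for features with 3 of 4 values at every day (11517). The pairs were fitted as a mean per day and pair, with 4 values at day 22 (10917). Tests were two-sided, with Benjamini-Hochberg adjustment over all features and a threshold of 0.05. The fits were tested on simulated data.

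Genes with placeholder symbols were not named. The naming rule took the 12 largest called means in each direction with 4 arrays of 1 sign. To these it added the 10 largest called pair differences in each direction with opposite, separate pairs. It also took the 5 largest calls in each pair and in each comparison of days (arrays not overlapping). Last came up to 4 called members of a list or else 2, and a set of hypoxia and lung vessel genes. Not all genes taken are described. Among undescribed pair differences, those of Ddx1, Rex2, Ccdc115 and Pigc kept their call without any 1 of the 4 arrays. Those of Tbc1d17, Ninj1, Serac1 and Mtarc2 lost it each time. The members and lists were chosen with earlier results of these data known. Promoters are from RefSeq. Channel intensities were not used here. Precision is limited by the 4 arrays of the day.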

Additional observations from a re-analysis of the deposited data

Results flagged for a closer look

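Replicate 3 of Ciart (-0.77) and replicate 1 of Slc2a1 (0.17) stood apart from the other 3 arrays of day 22 by the gap to the nearest of them as a share of the range (0.890 and 0.899). These are 2 of 105 named genes checked, and chance sets apart about 5% of such groups. Among the array medians that of replicate 4 (0.0103) stood apart.

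Several genes had a ratio at day 22 that differed from the ratio at day 21, by the test of the difference itself. S100a9 differed by 2.52, Prnd by 0.95, Atf3 by 0.85, Got2 by 0.80, Hbb-b1 by 0.79, Hbb-y by 0.77 and Phtf1 by 0.68. Ltf differed by 0.65, Igfbp3 by 0.53 and Egr1 by 0.32. In the other direction Cdk19 differed by -1.75, Mest by -0.84, Cxcl12 by -0.77, Emcn by -0.76, Podxl by -0.72, Bag3 by -0.55, Ciart by -0.54, Cdh5 by -0.51 and Dnaja1 by -0.49. Of these 19, 8 did not pass with the random block (Prnd, Cxcl12, Emcn, Phtf1, Ciart, Igfbp3, Ltf and Egr1), and 16 did not with the pairs averaged, S100a9, Cdk19 and Mest being the exceptions.

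Against day 24, Hbb-b1 differed by 1.18, Prnd by 1.07, Phtf1 by 1.06, Fos by 1.05, Got2 by 0.97, Egr1 by 0.96, Hbb-y by 0.93, Hba-x by 0.92 and S100a9 by 0.86. Tnfrsf12a differed by 0.60, Atf3 by 0.54 and Mgp by 0.45. Lower at day 22 were Xlr3c (-0.90), Podxl (-0.45), Lum (-0.44), Dnaja1 (-0.44) and Bag3 (-0.43). Of these 17, 9 did not pass with the random block (Prnd, Xlr3c, Podxl, Lum, Bag3, Hba-x, Atf3, Tnfrsf12a and Mgp), and 12 did not with the pairs averaged, Hbb-b1, Fos, Got2, Hbb-y and Egr1 being the exceptions. Podxl (adjusted p = 0.72 with the random block) was also lost with median centring (0.061) and in 6 of 8 fits without 1 array, and Lum (0.49 with the random block) in 5 of 8. Day 22 enters both comparisons, and each day has its own control.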

How the results depend on the processing

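Median centring, the limits on missing values and single spots kept every count within 1.5 times. A common spread for all arrays raised the count at day 22 to 587 (221 higher and 366 lower, or 37.6% higher against 51.3% in the main test), 127 against day 21, 308 against day 24, 2658 and 2387 in the pairs, 3485 for their difference and 7 for that difference beyond the other days. Same-numbered arrays deviated together from their day means at r over 0.1 in 126 of 144 pairs of days and not in all, so the numbers were not taken to pair the samples. With the replicate number as a block (replicate block) 338 passed at day 22 and 143 against day 21. Bmpr2 then passed (adjusted p = 0.0023), and of the named calls 1 was lost, Tnfrsf12a against day 24 (0.053). The random block left 73, 25 and 40 for day 22, day 21 and day 24, averaged pairs 56, 5 and 10, and the shared pair offset gave 359 at day 22 and 150 against day 21. The day 22 arrays alone gave 70 (53 higher, 17 lower). Leaving out 1 array gave 91 to 155 at day 22, 49 to 75 against day 21, 51 to 67 against day 24, 102 to 353 and 70 to 73 in the pairs, 120 to 454 for their difference and 0 to 7 beyond the other days (7 without replicate 3). Uncalled means changed sign without 1 array for Gprc5a (-0.026 to 0.235), Hif1a (-0.047 to 0.027), Slc2a1 (-0.085 to 0.0071), Hmox1 (-0.019 to 0.114) and Col1a1 (-0.015 to 0.0696). The share of calls with a positive ratio, which means higher only if the ratio runs as read here, was 51.3%, against 80.8% with the random block, 87.5% with averaged pairs and 75.7% in the day 22 arrays alone. The cause of these shifts was not tested.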

Other observations

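Some called genes outside the lists were singled out after their values were seen. Their calls are those of the main test, and results under the alternatives are not given for them. Of all 189 calls at day 22, 73 also passed with the random block and 56 with the pairs averaged. Igfbp5, like Igfbp4 and Igfbp3 a binding protein of insulin-like growth factors, stood at -0.35 on 4 arrays (limma adjusted p = 0.0114), -0.44 in replicates 1 and 2 and -0.26 in replicates 3 and 4. A further family member, Igfbp7, stood at -0.11 (adjusted p = 0.94) and had pair means of 0.12 and -0.34. Myzap, a junction protein of heart muscle and endothelium, stood at -0.43 (limma adjusted p = 4.42e-05), with -0.39 and -0.47 in the pairs. Rac1, a small GTPase of the actin cytoskeleton, stood at -0.28 (limma adjusted p = 0.00295), with -0.24 and -0.31 in the pairs.

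Mdk, the heparin-binding growth factor midkine, stood at 0.60 (limma adjusted p = 0.0397), with 0.97 in replicates 1 and 2 and 0.23 in replicates 3 and 4. Scarb1, a receptor of high-density lipoprotein, stood at 0.51 (limma adjusted p = 0.0139), with 0.83 and 0.18. In both the difference between the pairs passed as well (adjusted p = 0.00339 and 0.00993), and it had the same sign in the mean of the other 8 days (0.48 and 0.27).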
